A study of Mus musculus with 6 samples.

Results

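Mitochondrial fusion and fission were read out through 8 genes, Mfn1, Mfn2, Opa1, Dnm1l, Fis1, Mff, Oma1 and Yme1l1, chosen by name for their roles. Earlier results of these data were known when the genes were chosen. All 8 were found among the 23337 genes of the count table, and all 8 passed the filter on low counts. The experiment asked how extra serum response factor (SRF), a transcription factor, alters gene expression in maturing mouse cardiomyocytes (CMs). Wildtype pups received AAV9-cTNT-SRF-2A-GFP (SRF-OE) or AAV9-cTNT-GFP (GFP control) on postnatal day 1 at 5e8 vg per g. On postnatal day 14 the hearts were perfused with collagenase and the GFP-expressing CMs were isolated by flow cytometry. The cTNT (cardiac troponin T) promoter restricts the transgene to CMs, the dose was mosaic so that a part of the CMs was transduced, and the controls carried AAV and GFP as well. The labels list 3 libraries per group, but the column headed as SRF-OE replicate 1 held gene lengths, so SRF-OE replicates 2 and 3 were compared with GFP replicates 1, 2 and 3. The labels do not say whether each library came from a separate heart, and p-values then measure only the spread between these libraries.

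Mitochondria join and divide continuously. MFN1 and MFN2, large GTPases of the outer membrane, tether and fuse the outer membranes of neighbouring mitochondria, and OPA1 fuses the inner membranes and shapes the cristae. DRP1, the product of Dnm1l, is a cytosolic GTPase that is drawn to the outer membrane by adaptors such as MFF and FIS1 and constricts the organelle, while the inner membrane proteases OMA1 and YME1L1 cut OPA1 into its short forms. CMs are packed with mitochondria, and loss of the mitofusins or of DRP1 in the whole heart is known to cause cardiomyopathy. After mosaic loss of both mitofusins, the paper that reported these data describes smaller mitochondria but very mild T-tubule changes. It detected no change in the sarcomeres, size or shape of those CMs. With DRP1 overexpressed, the paper likewise describes smaller mitochondria and very mild effects on T-tubules, sarcomeres and CM size and shape.

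The sequences just upstream of Mfn1, Mfn2 and Opa1, the 3 genes with the largest differences, and of Fis1, the gene with the opposite sign, are shown so that their letters can be set beside the values. Each is the 250 bases before the most upstream RefSeq start site on build GRCm38.p6 (mm10), read 5' to 3' on the strand of the gene. They lie at chr3:32529232-32529481 (plus strand) for Mfn1, chr4:147904910-147905159 (minus strand) for Mfn2, chr16:29579084-29579333 (plus strand) for Opa1 and chr5:136953025-136953274 (plus strand) for Fis1. Capitals mark CCGGAAG, the core of ETS factor sites, or CGCATGCG, the core of the NRF1 element.
Mfn1: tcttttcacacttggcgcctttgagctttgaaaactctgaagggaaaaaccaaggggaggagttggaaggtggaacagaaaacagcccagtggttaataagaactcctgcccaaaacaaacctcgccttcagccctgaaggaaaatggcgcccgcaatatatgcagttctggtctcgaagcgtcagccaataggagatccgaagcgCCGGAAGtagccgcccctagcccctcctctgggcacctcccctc
Mfn2: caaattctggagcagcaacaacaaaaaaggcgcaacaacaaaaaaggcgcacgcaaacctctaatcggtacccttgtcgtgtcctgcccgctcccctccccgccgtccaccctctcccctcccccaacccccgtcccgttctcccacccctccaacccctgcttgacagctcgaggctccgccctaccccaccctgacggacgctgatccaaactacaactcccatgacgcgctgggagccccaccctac
Opa1: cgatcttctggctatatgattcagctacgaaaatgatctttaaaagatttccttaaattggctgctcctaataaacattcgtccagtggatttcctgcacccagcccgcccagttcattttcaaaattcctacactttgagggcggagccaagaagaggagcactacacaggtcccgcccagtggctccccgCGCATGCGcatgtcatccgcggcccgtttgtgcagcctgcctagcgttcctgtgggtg
Fis1: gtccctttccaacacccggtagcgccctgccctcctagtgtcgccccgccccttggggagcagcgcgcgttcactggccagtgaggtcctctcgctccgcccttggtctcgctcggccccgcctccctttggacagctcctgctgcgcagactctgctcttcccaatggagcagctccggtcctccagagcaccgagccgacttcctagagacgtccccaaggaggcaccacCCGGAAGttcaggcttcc

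The SRF-binding CArG box was searched by its name on both strands, and 0 of the 8 genes held one, beside 380 (1.41%) of all 27025 promoters of this length. TNAAGGTCA, the element of the ERR nuclear receptors, was in 0 of the 8 and in 1.13% of all promoters. CGCATGCG was in 1 of the 8, in Opa1 from 58 to 51 bases before the start, and in 1.58% of all promoters. CCGGAAG was in 3 of the 8 and in 7.07% of all promoters: from 44 to 38 bases before the start of Mfn1, from 18 to 12 before that of Fis1, and at 73 to 67 and 19 to 13 before that of Yme1l1. No match overlapped another. The gene positions given below come from another annotation, whose starts can differ. Yme1l1 starts there at 23156369, inside its window of 23156255 to 23156504 on chromosome 2, and both its matches follow that start. The Mfn2 window begins at 147904910, not next to the end of 147904704 given below for that minus-strand gene. A match is a description of letters, and a missing one says only that they are not in this window. Other start sites, present for Mfn2, Dnm1l, Fis1 and Mff, and more distant regions were not searched. The paper that reported these data measured SRF on chromatin of mouse hearts at postnatal day 14. It describes binding near Mfn1 and Mfn2, in proximal as well as distal regions, which a search for letters does not measure.

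Total counts were 14137433 to 23159631 per library, and each of the 8 genes had at least 620 reads in every library. Srf itself, with transgene and endogenous reads counted together, was at 360 and 748 CPM in SRF-OE replicates 2 and 3 and at 67.3 and 85.1 CPM in GFP replicates 2 and 3, but at 338 CPM in the library labelled GFP1. Results are therefore given with and without that library. Over the 5 libraries Srf had a log2 fold change of 1.76 (SE 0.71, adjusted p = 0.36 in edgeR's quasi-likelihood test). Without GFP1 the value for Srf was 2.87 (SE 0.37, adjusted p = 0.044 in the same test). CPM is the count per 1e6 counts of a library, scaled with edgeR's TMM factors. Summed over 8 markers each, CM genes were at 74496 to 112730 CPM, endothelial genes at 291 to 749, fibroblast genes at 307 to 821, smooth muscle and pericyte genes at 527 to 695 and leukocyte genes at 12.1 to 37.6, with 0 markers at 0 in all libraries. Replicate 2 of both groups had Xist at 88.8 or more CPM and no reads of 3 Y-linked genes, and the other 3 libraries had the reverse pattern.

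Among the 8, the fusion genes differed most between groups. Mfn1, Mfn2 and Opa1 were each lower in both SRF-OE libraries than in all 3 GFP libraries, by 32.0% to 40.2% in the fitted fold change. Over the 5 libraries none of the 8 genes passed the cutoff, an adjusted p of 0.05 in edgeR's quasi-likelihood test with Benjamini-Hochberg adjustment over all genes. Without the library labelled GFP1, Mfn1 passed it and fell, and Opa1 and Mfn2 lay just outside.

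Mfn1 lies on chromosome 3 from 32529465 to 32579239. It was at 401, 543 and 651 CPM in GFP replicates 1, 2 and 3 and at 344 and 292 CPM in SRF-OE replicates 2 and 3. The groups did not overlap, and the library labelled GFP1 was the GFP library nearest to SRF-OE. SRF-OE averaged 318 ± 36.3 CPM (SD, n = 2) against 532 ± 126 CPM (SD, n = 3) for GFP, giving a log2 fold change of -0.74 (SE 0.23, adjusted p = 0.35 in edgeR's quasi-likelihood test). In the 4 libraries without GFP1 it was -0.90 (SE 0.16, adjusted p = 0.0499), at the edge of the cutoff. With all 5 libraries DESeq2 gave Mfn1 an adjusted p of 0.024, or 0.14 without its independent filtering.

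Mfn2 lies on chromosome 4 from 147873599 to 147904704. Its level was 1049, 1568 and 1713 CPM in GFP replicates 1, 2 and 3 and 974 and 818.5 CPM in SRF-OE replicates 2 and 3. As for Mfn1, the order of the 5 libraries put GFP1 next to SRF-OE replicate 2, here only narrowly above it. SRF-OE averaged 896 ± 110 CPM (SD, n = 2) against 1443 ± 349 CPM (SD, n = 3) for GFP, giving a log2 fold change of -0.69 (SE 0.25, adjusted p = 0.36, edgeR). Without GFP1 it was -0.87 (SE 0.17, adjusted p = 0.053, edgeR). A processed pseudogene, Gm13156, overlaps Mfn2 on the opposite strand, and the strand setting of the counting was not given, so reads of the pair cannot be told apart.

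Opa1 lies on chromosome 16 from 29579334 to 29654884. It was at 249, 301 and 329 CPM in GFP replicates 1, 2 and 3 and at 199 and 200.1 CPM in SRF-OE replicates 2 and 3. The SRF-OE libraries were almost equal and under the lowest GFP library. SRF-OE averaged 199 ± 1.15 CPM (SD, n = 2) against 293 ± 40.9 CPM (SD, n = 3) for GFP, giving a log2 fold change of -0.56 (SE 0.15, adjusted p = 0.35, edgeR). Without GFP1 it was -0.66 (SE 0.12, adjusted p = 0.0502, edgeR).

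Within replicate number 2, the SRF-OE library minus the GFP library was -0.66 for Mfn1, -0.69 for Mfn2 and -0.60 for Opa1 on the log2 CPM scale, and both of these libraries have the Xist pattern. Among the other 3 libraries, SRF-OE replicate 3 minus GFP replicate 3 was -1.16, -1.07 and -0.72 for the same genes in that order. Against the library labelled GFP1 these differences were -0.45, -0.36 and -0.31. The negative sign in each of these comparisons follows from the lack of overlap given above and adds no support to it. The smallest size against GFP1 likewise follows from GFP1 being the lowest GFP library for all 3 genes.

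**Figure D1:**
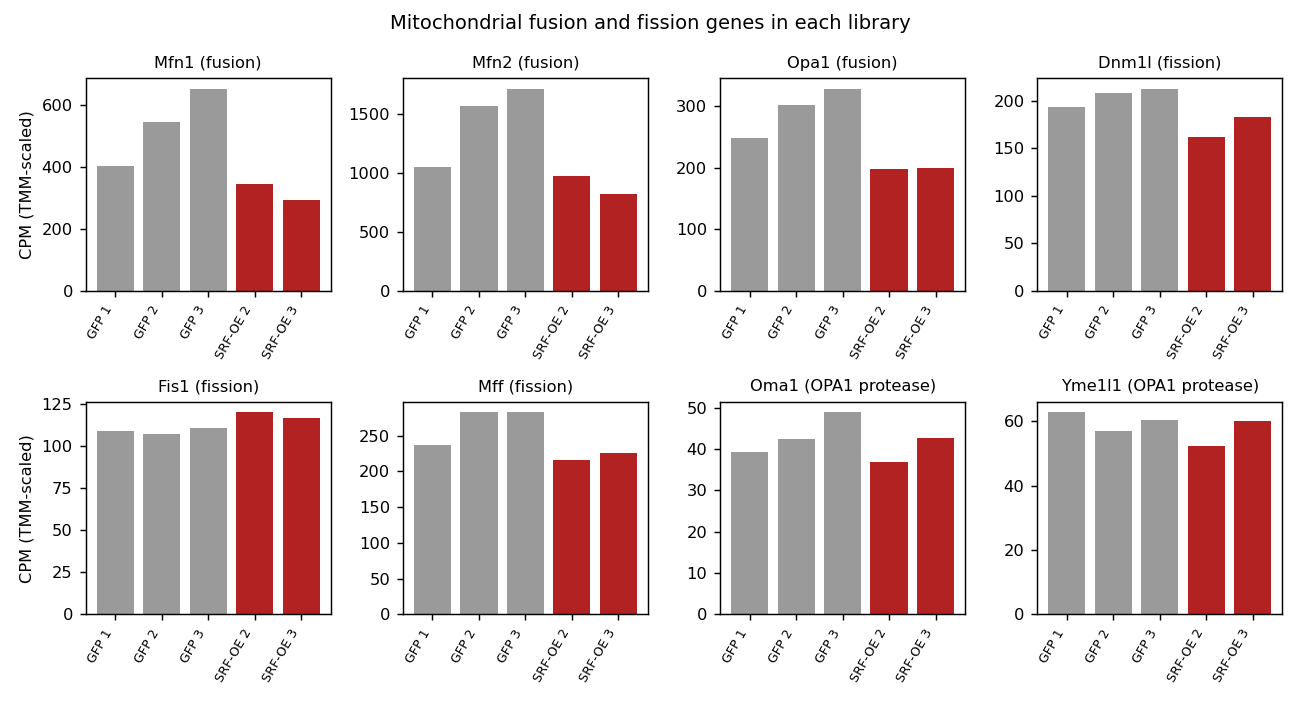
TMM-scaled CPM of the 8 genes, with 1 bar per library, GFP in grey and SRF-OE in red, and axes from 0. Both SRF-OE bars of Mfn1, Mfn2 and Opa1 are under all GFP bars, with 974 CPM in SRF-OE replicate 2 against 1049 CPM in GFP replicate 1 for Mfn2, whereas those of Fis1 are slightly above them.

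The fission genes differed less, and not all in 1 direction. Dnm1l, which encodes the constricting GTPase, was at 193, 208 and 213 CPM in GFP replicates 1, 2 and 3 and at 161 and 183 CPM in SRF-OE replicates 2 and 3. The SRF-OE libraries were lower without overlap, by a log2 fold change of -0.25 (SE 0.12, adjusted p = 0.40, edgeR). An antisense gene, Gm49521, overlaps Dnm1l on chromosome 16 (16312230 to 16358959), and reads of the pair cannot be told apart without strand.

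Mff, the main adaptor for DRP1 on the outer membrane, was at 237, 282 and 283 CPM in GFP replicates 1, 2 and 3 and at 216 and 226 CPM in SRF-OE replicates 2 and 3. Its log2 fold change was -0.27 (SE 0.13, adjusted p = 0.39, edgeR), again with no overlap. C430014B12Rik and Gm28941 overlap Mff on chromosome 1 (82724890 to 82752394), so its reads are uncertain to that extent. The lack of overlap of Dnm1l and Mff depended on the scaling: in CPM by total counts, with no TMM factors, Dnm1l was at 175 and 197 CPM in SRF-OE against 191 to 196 in GFP, and the groups of Mff overlapped as well.

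Fis1, the other adaptor, lies on chromosome 5 from 136953275 to 136966234 and went the other way. It was at 109, 107 and 110.4 CPM in GFP replicates 1, 2 and 3 and at 119.9 and 116 CPM in SRF-OE replicates 2 and 3. Both SRF-OE libraries were above all GFP libraries, by 8.66% in the fitted fold change. Its log2 fold change was 0.12 (SE 0.11, adjusted p = 0.60, edgeR), about as large as its error. None of the other 7 genes had a positive fold change in the 5 libraries.

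The proteases that cut OPA1 differed by no more than their errors. Oma1, the stress-activated protease, on chromosome 4 from 103313812 to 103371868, was at 39.3, 42.5 and 48.9 CPM in GFP replicates 1, 2 and 3 and at 36.8 and 42.7 CPM in SRF-OE replicates 2 and 3. Yme1l1, the constitutive ATP-dependent protease, on chromosome 2 from 23156369 to 23199260, was at 62.9, 56.9 and 60.4 CPM and at 52.4 and 60.3 CPM in the same order. The groups overlapped for both genes. The log2 fold change was -0.13 (SE 0.15, adjusted p = 0.69, edgeR) for Oma1 and -0.09 (SE 0.13, adjusted p = 0.74, edgeR) for Yme1l1, and with total counts in place of TMM factors both became positive.

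Of the 8 genes, 7 had a negative log2 fold change in the 5 libraries, with a median of -0.26 beside 0.03 over all 13754 genes tested. At the adjusted cutoff 0 of the 8 were called, as were 0 (0%) of all genes higher and 0 (0%) lower. At an unadjusted p under 0.05, 3 of the 8 were lower (Mfn1, Mfn2 and Opa1) and 0 higher, beside 7.59% of all genes lower and 6.35% higher. Both SRF-OE libraries were under all GFP libraries for 5 of the 8, beside 17.3% of all genes, and above them for 1, beside 16.1%.

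Without the library labelled GFP1, 1 of the 8 (Mfn1) was called lower and 0 higher, beside 0.97% and 1.98% of the 13397 genes tested. At an unadjusted p, 4 of the 8 were then lower, Mff being added at -0.35 (SE 0.11, adjusted p = 0.117, edgeR), beside 14% of all genes lower and 14.4% higher. DESeq2 over the 5 libraries called Mfn1, Mfn2 and Opa1 lower. It gave an adjusted p to only 1167 genes, 5 of these 8 among them, and called 18.3% of those 1167 genes lower. With GFP1 left out, DESeq2 called the same 3 genes lower, beside 6.14% of the genes given an adjusted p.

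**Figure D2:**
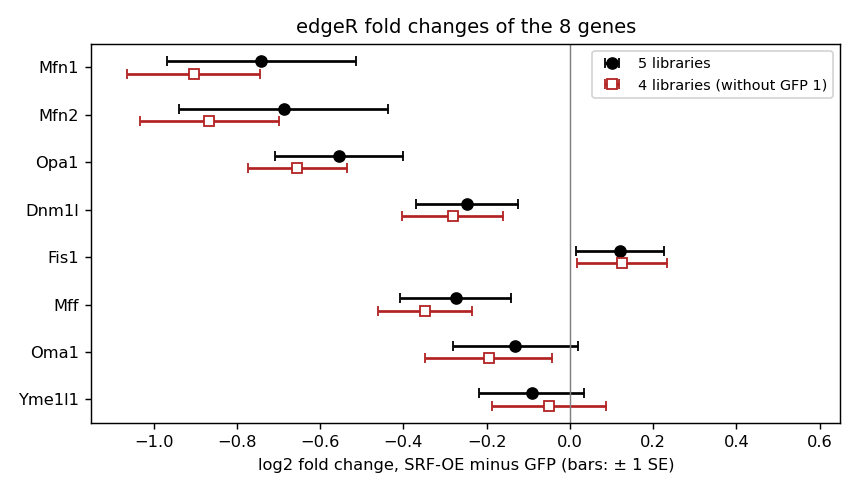
Log2 fold change of each gene, SRF-OE minus GFP, from edgeR, with bars of 1 SE, for the 5 libraries (black circles) and the 4 libraries without GFP replicate 1 (red squares). Mfn1 moves from -0.74 to -0.90 when that library is left out, and Fis1 stays slightly above 0 in both fits.

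Levels can be compared between genes only per gene length, as TPM (CPM corrected for gene length), computed here from the length column. Mfn2 was highest at 532 ± 132 TPM (SD over the 5 libraries), above 98.3% of the genes tested. Mff followed at 257 ± 15.8 TPM, Fis1 at 198 ± 24.4 TPM and Mfn1 at 187 ± 48.2 TPM, with the range of Mfn1 overlapping both others and those of Mff and Fis1 apart. Dnm1l at 91.0 ± 5.05 TPM and Opa1 at 81.4 ± 12.6 TPM overlapped with each other. Oma1, at 43.5 ± 3.65 TPM, and Yme1l1, at 24.8 ± 2.17 TPM, were lowest and did not overlap with any neighbour. On the TPM scale, which has no TMM factors, SRF-OE stayed under GFP without overlap for Mfn1 and Opa1, but Mfn2 was at 462 TPM in SRF-OE replicate 2 and at 457 TPM in GFP1.

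Ratios of genes within a library do not depend on its scaling. The proportion of the mitofusins overlapped between groups, with Mfn2 making up 73.1%, 74.9% and 73.1% of their summed TPM in GFP replicates 1, 2 and 3 and 74.6% and 74.3% in SRF-OE replicates 2 and 3. Of 8 ratios computed, 3 did not overlap between groups. For single genes, SRF-OE was under all GFP libraries in 17.3% and above them in 16.1% of all genes tested. The ratios share genes, and no share over other ratios was computed, so this count is a description only. The ratio of Mfn2 to Fis1 was lower in SRF-OE, at 2.43, 3.69 and 3.91 in GFP and 2.05 and 1.77 in SRF-OE. Mff over Fis1, the adaptors of DRP1, was 1.29, 1.56 and 1.51 in GFP and 1.06 and 1.15 in SRF-OE. Dnm1l over Opa1 was 1.15, 1.02 and 0.956 in GFP and 1.20 and 1.35 in SRF-OE, higher without overlap. Mfn2 over Dnm1l overlapped, at 5.04, 6.99 and 7.47 in GFP and 5.60 and 4.14 in SRF-OE. Mfn2 over Mff did too, at 1.88, 2.37 and 2.58 in GFP and 1.92 and 1.54 in SRF-OE, as did Mfn2 over Opa1 and Yme1l1 over Oma1.

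The summed TPM of Mfn1, Mfn2 and Opa1 was 704, 965 and 1043 in GFP replicates 1, 2 and 3 and 689 and 603 in SRF-OE replicates 2 and 3. That of Dnm1l, Fis1 and Mff was 521, 547 and 538 in GFP and 549 and 575 in SRF-OE. The SRF-OE libraries were thus under GFP in the fusion sum, narrowly so against GFP replicate 1, while the place of the fission sum turned with the scaling. Divided by the TMM factors, the fission sum was 514, 581 and 600 in GFP and 505 and 535 in SRF-OE, which overlap. The ratio of the sums was 1.35, 1.76 and 1.94 in GFP and 1.25 and 1.05 in SRF-OE. These ratios were computed after the values had been seen and were not tested. They describe mRNA, not the proteins or the shape of mitochondria.

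**Figure D3:**
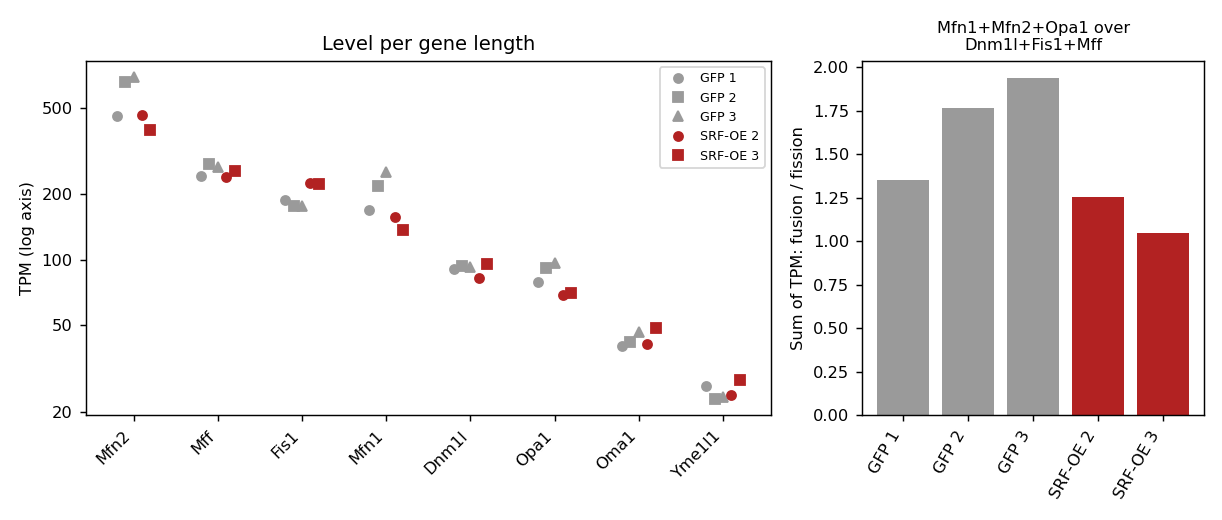
Left, TPM of the 8 genes in each library on a log axis, ordered by level, with GFP in grey and SRF-OE in red. Right, the summed TPM of Mfn1, Mfn2 and Opa1 divided by that of Dnm1l, Fis1 and Mff, with 1 bar per library from 0, between 1.35 and 1.94 in GFP and at 1.25 and 1.05 in SRF-OE.

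CM markers and those of other cell types moved between the same libraries. Summed CM markers were at 79680, 95284 and 112730 CPM in GFP replicates 1, 2 and 3 and at 76978 and 74496 CPM in SRF-OE replicates 2 and 3, the same order of libraries as for Mfn1 and Mfn2. Of the 8 CM markers, 7 had a negative log2 fold change, with a median of -0.42. Of these markers 5 were lower without overlap, beside 17.3% of all genes, and 0 were higher. All 8 fibroblast markers were positive, with a median of 0.79. Of the fibroblast markers 4 were higher without overlap, beside 16.1% of all genes, and 0 were lower. Their sum was 441, 356 and 307 CPM in GFP and 821 and 422 CPM in SRF-OE, which overlap. The endothelial sum overlapped too, at 589, 318 and 308 CPM in GFP and 749 and 291 CPM in SRF-OE. All 8 of its markers were positive, with a median of 0.42, and 0 were higher or lower without overlap. Of the smooth muscle and pericyte markers 7 of 8 were positive (median 0.56), and of the leukocyte markers 5 of the 7 tested (median 0.49). Without overlap, 2 smooth muscle and pericyte markers were higher and 1 lower, and 1 leukocyte marker was higher and 0 lower. The sums of these lists overlapped between groups as well. The part of these differences in the values of the fusion genes was not tested, and in sorted bulk samples fewer cells of a type and less RNA per cell cannot be told apart.

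Of 51 other genes of mitochondrial dynamics and quality control, listed by role, 50 were matched and tested. In the 5 libraries 41 were negative and 9 positive, with a median of -0.27. None was called in edgeR, 18 were lower and 0 higher at an unadjusted p under 0.05, and 28 were lower and 5 higher without overlap. The shares of all genes to set beside these counts are those given for the 8. Over the 5 libraries DESeq2 gave an adjusted p to 21 of the 50 and called 9 of those lower, beside 18.3% of all genes given one, and without independent filtering it called 0.

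The transport list, which links mitochondria to microtubule motors, had a median of -0.43, and 3 of its 4 genes were lower at an unadjusted p. Trak1, the adaptor between the outer membrane and kinesin, was at 262, 374 and 429 CPM in GFP replicates 1, 2 and 3 and at 232 and 225 CPM in SRF-OE replicates 2 and 3. The groups did not overlap, and Trak1 was called lower without GFP1, at -0.81 (adjusted p = 0.048, edgeR), beside -0.64 (adjusted p = 0.35) with all 5. The MICOS list covers the complex that holds the cristae junctions and also Samm50, an outer membrane protein that is not one of its subunits. In this list 7 of 8 genes were negative and 3, Samm50 among them, were lower at an unadjusted p. The lowest fold change of the list was that of Immt, which encodes the core subunit of the complex, at -0.59 (SE 0.19, adjusted p = 0.35, edgeR). The highest was that of Chchd6 at 0.15.

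Among the adaptors and regulators of fission, 11 of 15 were negative and 5 were lower at an unadjusted p. The lowest fold change was that of Mtfp1, at -0.72 (SE 0.20, adjusted p = 0.35, edgeR), as large as those of the fusion genes. The highest was that of Inf2, at 1.16 (SE 0.53, adjusted p = 0.37, edgeR), from at most 2.77 CPM. The groups overlapped for neither gene. Akap1, which anchors protein kinase A to the outer membrane, was at 169, 299 and 274 CPM in GFP replicates 1, 2 and 3 and at 170.4 and 134 CPM in SRF-OE replicates 2 and 3. SRF-OE replicate 2 and GFP1 were almost equal, so the groups overlapped. Its log2 fold change was -0.70 (adjusted p = 0.36, edgeR), and without GFP1 it was called lower at -0.90 (adjusted p = 0.0496, edgeR).

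Among the regulators of fusion, 5 of 7 were negative, with a median of -0.18. The extremes were Fam73b, also named Miga2, an outer membrane protein that promotes fusion, at -0.89 (SE 0.36, adjusted p = 0.36, edgeR), and Usp30, an outer membrane deubiquitinase, at 0.31 (adjusted p = 0.44). Fam73b was at 90.3 CPM in GFP1 and 100.2 CPM in SRF-OE replicate 2, so its groups overlapped. The list of inner membrane proteases and scaffolds also holds Clpp and Lonp1, which are proteases of the matrix. In it 8 of 9 genes were negative, from -0.48 for Phb, a prohibitin, to 0.11 for Romo1. Of the mitophagy genes, 6 of 7 were negative, from -0.43 for Pink1, the kinase that marks damaged mitochondria, to 0.05 for Bnip3l, a mitophagy receptor.

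**Figure D4:**
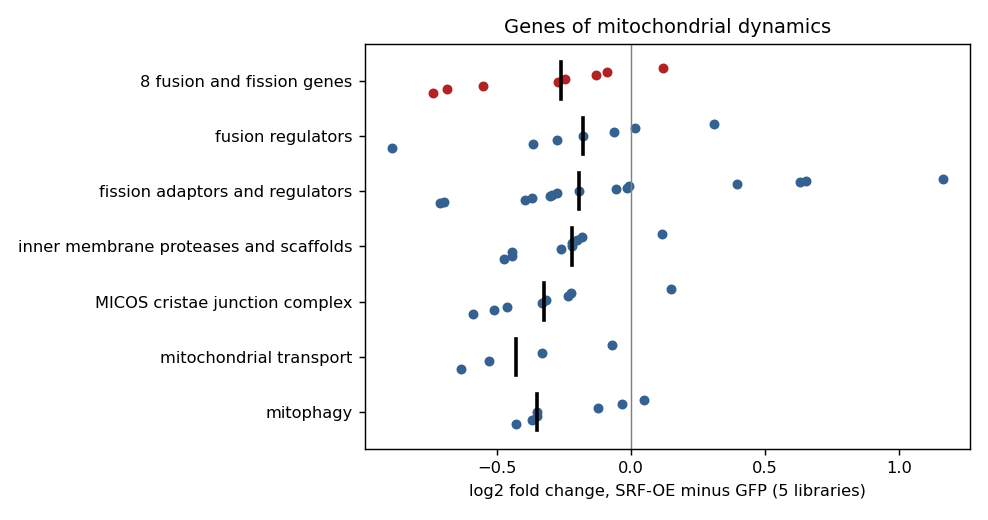
Log2 fold change, SRF-OE minus GFP over the 5 libraries, of the 8 genes (red) and of the other genes of mitochondrial dynamics (blue), with 1 point per gene and a black line at the median of each list. Medians lie between -0.43 for mitochondrial transport and -0.18 for the fusion regulators, beside -0.26 for the 8 genes.

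The pattern of each gene over the 5 libraries was compared with that of 8522 genes of at least 10 CPM on average, by the root mean square difference of log2 CPM centred on each gene's mean. The nearest gene was Lrpprc for Mfn1 (0.029), Spnb1 for Mfn2 (0.031), Pygm for Opa1 (0.014) and Lman2 for Dnm1l (0.014). For the remaining genes it was Crtc3 for Fis1 (0.018), Prmt7 for Mff (0.015), Sbf1 for Oma1 (0.015) and Eif4e2 for Yme1l1 (0.019). Among the 28 pairs of the 8 genes, Mfn1 and Mfn2 were most alike (0.057), Dnm1l and Mff were next (0.060), and Mfn1 and Fis1 were least alike (0.47). With only 5 libraries that share scaling and group, this likeness is a description.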

How the data were processed

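RNA-seq libraries were made with SMART-Seq v4 from 10 ng of total RNA of sorted CMs with 8 PCR cycles and Nextera XT. Per the labels, the submitters' processing notes name CASAVA 1.8, STAR 2.5.3a, featureCounts of Subread 1.5.2 and mm10. The authors deposited raw counts per gene in 1 table; the settings for strand and multiply mapped reads are not given in the sources used here. Its column OE1 holds lengths (0 zeros; 73.8% of 20892 genes within 5% of an annotated exon length), so the test planned for 6 libraries used 5. Columns were mapped by name, and 0 were left unused. Counts were analysed in R 4.3.3 with edgeR 4.0.16 (filterByExpr, TMM, glmQLFit, glmQLFTest), adjusted over all genes at 0.05, and the SE is the log2 fold change over the square root of F. DESeq2 1.42.0, other filters and scalings, left-out libraries and a replicate block were alternatives. Fits were also run on simulated data with differences larger than those of the 8 genes. That run does not show what the fits detect at the sizes given here. CPM and TPM were computed from the counts. Positions were read from a GRCm38 annotation. The 8 genes, the lists and the weight on the library labelled GFP1 were chosen with earlier results of these data known. Other genes named are those called in a list, its extremes where none was called, and the nearest patterns. For the fission list the extremes were added after the data were seen. Proteins are not shown, and knockout libraries were not analysed here.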

Additional observations from a re-analysis of the deposited data

How the results depend on the processing

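The median log2 fold change of the 8 genes kept its negative sign in every alternative run. Under upper quartile scaling, DESeq2's size factors, a floor of 10 counts in each library or no filter at all, edgeR called 0 genes, as with the 5 libraries as labelled. DESeq2 over the 5 libraries called 11 genes higher and 213 lower, with 3 of the 8 and 9 of the 50 other genes lower. Without independent filtering it called 17 higher and 29 lower (0.135% of genes), with 0 of the 8 and 0 of the 50. Leaving out 1 library at a time gave 0 to 265 genes higher, 0 to 130 lower, 0 to 1 of the 8 lower and 0 to 2 of the 50 lower, and all of these calls came from leaving out GFP replicate 1. With that library left out, DESeq2 called 853 genes higher and 832 lower, 3 of the 8 lower and 11 of the 50 lower. Counts for the 50 genes under the alternatives were added after the data were seen, as was scaling by total counts only. That scaling raised the median of all genes from 0.03 to 0.21, moved the median of the 8 to -0.072, and turned Oma1 to 0.059 and Yme1l1 to 0.092, while Fis1 was at 0.31. Oma1 and Yme1l1 were then still under the median of all genes. Leaving out 1 library at a time, Yme1l1 ranged from -0.21 to 0.0039, its sign turning without SRF-OE replicate 2. When 1 SRF-OE library is left out, the other is assumed to vary like the GFP libraries. Across the left-out libraries, Mfn1 ranged from -0.90 to -0.57, Mfn2 from -0.87 to -0.55 and Opa1 from -0.66 to -0.46. Dnm1l was at -0.35 without SRF-OE replicate 3 and -0.16 without SRF-OE replicate 2, and Oma1 at -0.25 and -0.031 in turn. The cause of these changes was not tested.

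With the replicate block, the number in the titles as a term, edgeR called 582 genes higher and 432 lower (3.14%), 3 of the 8 lower (Mfn1, Mfn2 and Opa1) and 4 of the 50 lower. GFP replicate 1 was alone in its number, so the block term took it out of the group comparison. The block fit is thus not separate from leaving that library out. Mfn1 was at -0.91 with the block and at -0.90 without GFP replicate 1, beside -0.74 in the main fit. With GFP replicate 1 removed before the fit, the block gave 547 higher and 392 lower (2.93%), 1 of the 8 (Mfn1) and 4 of the 50 lower. No label ties libraries of the same number, though they share the pattern of Xist and Y-linked reads. Across genes, their deviations from the group means correlated at 0.40 for number 2, or 0.22 without GFP replicate 1, and -0.074 for number 3. The limits are the small groups, 2 against 3, and the Srf level of 1 GFP library; depth was not limiting for these genes, with at least 620 reads each.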
